A study of Mus musculus with 14 samples.

Results

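The comparison described here is between 6 adipose tissue libraries labelled as Dectin-1 knockout (KO) and 5 wild-type (WT) libraries that were rich in lymphoid transcripts, 11 of the 14 libraries of the series. Libraries were chosen by a measured level and kept where Cd79a, the B-cell receptor signalling chain, was above 100 TPM (the authors' length-scaled share of a fixed total of transcripts). This took KO replicates 1 to 6 and WT replicates 3, 5, 6, 8 and 9, and left out KO replicate 7 and WT replicates 4 and 7. Both groups are C57BL/6 mice at postnatal week 21, with 1 mouse per library by the labels, and no treatment is named for either. The KO mice differ from the WT mice by the label KO-Dectin1 alone; the labels name no allele, no substrain of C57BL/6, no breeding scheme and no fat depot. The design asks how the adipose transcriptome differs when Dectin-1 is absent, and the restriction asks it among pieces that all carry lymphoid transcripts.

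Dectin-1 is a C-type lectin, encoded by Clec7a, through which macrophages, dendritic cells and neutrophils bind the β-glucans of fungal cell walls. On binding, it signals through the kinase Syk and the adaptor Card9 to NF-κB, and drives phagocytosis, reactive oxygen and cytokines. Lymph nodes and smaller lymphoid clusters lie embedded in fat pads, so a dissected piece of fat may carry B cells, T cells and node stroma beside adipocytes and macrophages. In bulk tissue, fewer cells of a type and less RNA per cell cannot be told apart.

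The retained libraries carried the transcripts of a lymph node. In them Cd79a lay between 177 and 720 TPM, and in the 3 libraries left out between 0.62 and 1.52 TPM, so no library lay near the limit. Ccl21a, the chemokine by which node stroma draws T cells, ranged from 369 to 1011 TPM in the retained libraries and from 0.60 to 0.87 in the others. Glycam1, an L-selectin ligand of node venules, ranged from 72.2 to 270 TPM against 0 to 0.13. Cd3e, part of the T-cell receptor complex, ranged from 32.7 to 110 TPM against 1.07 to 2.69. Adipoq, which encodes the adipocyte hormone adiponectin, was at 683 to 3265 TPM in the retained libraries and at 3000 to 4068 in those left out. Mylpf, a fast skeletal muscle light chain, ran from 3.75 to 716 TPM among the retained libraries with no order by label. Markers of epididymis stood at or near 0 (Lcn5 at 0 in all 14 libraries, Crisp1 at 0.20 TPM or less), as did the mesothelial gene Msln (0.39 TPM or less). Pancreatic enzyme genes were read in every library. Ctrb1 ranged from 28.01 to 94.04 TPM, Cela1 from 13.99 to 47.9 and Prss2 from 14.22 to 45.78, each highest in WT replicate 8. The mean log2(TPM + 1) of a pancreas, liver and gut list was 6.22 there, with KO replicate 6 next at 5.07. WT replicate 8 also had the highest mean of the complement list, 6.29. Whether tissue carried over bears on the gene groups below was not tested. The basal keratin Krt5 was at 0.02 TPM or less in the retained libraries and at 0.21 in KO replicate 7. Other epithelial genes were read: Epcam, an epithelial adhesion protein, ranged from 0.73 to 3.19 TPM in 10 retained libraries and stood at 12.9 in WT replicate 8, where the simple-epithelium keratin Krt8 was also highest among the retained libraries.

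**Figure D1:**
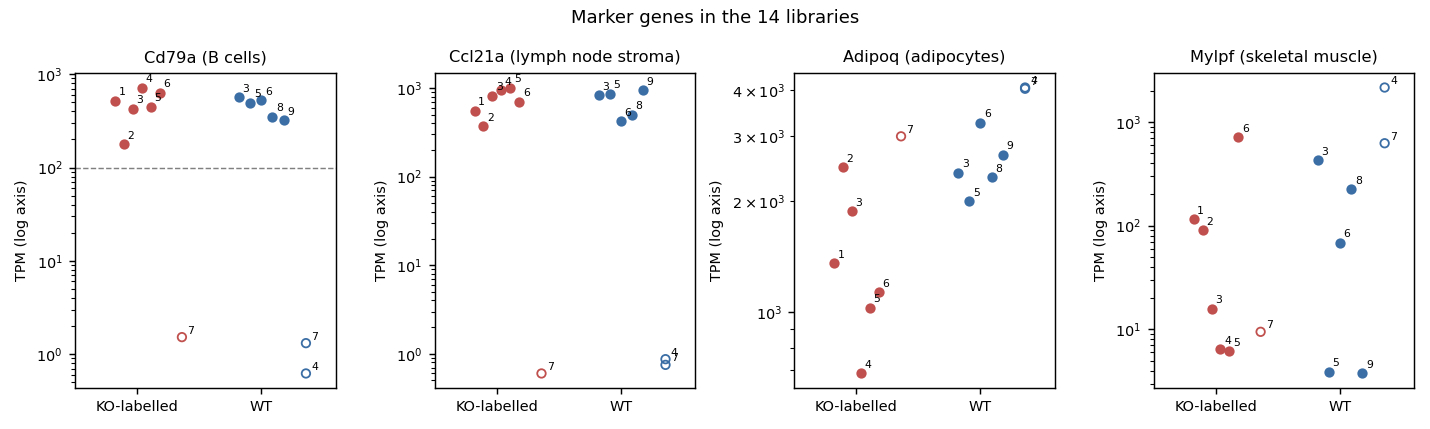
Each panel plots the TPM of 1 marker gene, on a log axis, for KO-labelled libraries (red) and WT libraries (blue), with replicate numbers beside the points. Filled points are the 11 retained libraries, open points the 3 left out, and the dashed line is the limit of 100 TPM. The open points lie far below the filled ones for Cd79a and Ccl21a but among or above them for Adipoq and Mylpf.

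The B-cell level itself was used to choose the libraries and is given as a description. Cd79a stood at a lowest, median and highest value of 177, 483 and 720 TPM in the KO-labelled libraries and at 563, 495, 529, 349 and 323 TPM in WT replicates 3, 5, 6, 8 and 9. KO replicate 2 was the lowest of the 11. On the first principal component, which held 30.4% of the variance, WT replicate 6 and KO replicate 2 stood apart from the rest, 1 library of each label, at 84.8 and 47.3 against -36.3 to 0.99. Values without this pair are given where they matter.

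Clec7a (ENSMUSG00000079293), the targeted gene, was read in every KO-labelled library. It stood at 4.02, 6.84 and 10.5 TPM (lowest, median, highest) in the KO-labelled libraries and at 15.9, 18.9, 4.72, 12.5 and 14.9 TPM in WT replicates 3, 5, 6, 8 and 9. WT replicate 6 lay within the range of the KO-labelled libraries and the other 4 WT libraries lay above all 6 of them. The mean was 7.39 ± 2.55 TPM (SD, n = 6) against 13.4 ± 5.3 (SD, n = 5), a difference on the log2(TPM + 1) scale of -0.72 ± 0.31 (SE) with a limma adjusted p of 0.46 and an exact permutation p of 0.0736 (2-sided). A gene-level value cannot show which exons were read, so it does not settle whether the targeted exons are missing, and the libraries are called KO-labelled throughout. Without WT replicate 6 the difference was -1.02 (limma adjusted p = 0.18).

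Other lectins of myeloid cells showed no gene past the threshold. Of 23 tested members of a list of myeloid C-type lectins and their adaptors, 18 had lower values in the KO-labelled libraries. The median log2 difference was -0.27. At an unadjusted p under 0.05, 3 members were lower, where 6.84% of all genes were. Those 3 were Cd302, Clec10a (a galactose-binding macrophage lectin) and Fcer1g, the adaptor through which Dectin-2 and Mincle signal. Fcer1g stood at 58.2, 112 and 140 TPM in the KO-labelled libraries and at 182, 178, 138, 141 and 123 in WT, with a log2 difference of -0.53 ± 0.21 (SE, limma adjusted p = 0.42). The 2 groups overlapped, KO replicate 6 being above WT replicates 6 and 9. Clec4n, which encodes Dectin-2, stood at 14.2 ± 8.4 TPM (SD, n = 6) against 29.8 ± 15.2 (SD, n = 5), a log2 difference of -1.05 ± 0.50 (limma adjusted p = 0.51), while Clec4e, which encodes Mincle, was near 1 TPM in both groups (log2 difference -0.05). Without WT replicate 6 the median of the list was -0.48, where that of all genes was -0.11. In that setting 9 members were lower at an unadjusted p under 0.05, where 10.3% of all genes were.

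For the signalling chain below Dectin-1 and its cytokine products, values leaned slightly higher or were even. Of 32 tested genes between the receptor and NF-κB, NFAT or the phagocyte oxidase, 22 had higher and 10 lower values in the KO-labelled libraries, with a median log2 difference of 0.13 and 0 genes at an unadjusted p under 0.05 in either direction. Syk stood at 54.5 ± 19.0 TPM (SD, n = 6) against 42.0 ± 12.5 (SD, n = 5), a log2 difference of 0.31 ± 0.30, and Card9 at 4.14 ± 0.61 against 3.79 ± 1.25, a log2 difference of 0.14 ± 0.21. Lymphocytes express many members of this list as well as myeloid cells, and the sign of its median depends on single libraries. Its median turned to -0.07 without WT replicate 6, where that of all genes was -0.11. In that setting 2 members were lower at that p, where 10.3% of all genes were. Without KO replicate 2 its median was 0.31, where that of all genes was 0.04, with 5 members higher where 8.06% of all genes were. With the mitochondrial share as a covariate it was 0.58, with 12 higher where 11.5% of all genes were. Of 22 genes known as products of the response, 14 were abundant enough to test, 7 higher and 7 lower, with Egr1, an immediate early transcription factor, as the member at an unadjusted p under 0.05 (log2 difference 0.84 ± 0.30, limma adjusted p = 0.39). Il6, Il10, Il23a and Nlrp3 were among the 8 that did not pass the filter on low values.

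Across the transcriptome, limma called 0 of 15090 tested genes at an adjusted p under 0.05 (0% of the genes tested), and the smallest adjusted p was 0.132. At an unadjusted p under 0.05, 1032 genes (6.84%) had lower and 508 genes (3.37%) higher values in the KO-labelled libraries. The exact permutation test over every way to part the 11 libraries 6 to 5 also called 0 genes (smallest adjusted p = 0.34), and the smallest p that it can give is 0.00216. The groups did not overlap for 187 genes, 143 of them lower (0.948% of the genes tested) and 44 higher (0.292%) in the KO-labelled libraries. This split depends on scaling, since TPM is a share of a total: it was 113 lower and 143 higher with median-ratio scaling, 111 and 152 with quantile normalization, and 75 and 89 with TPM rescaled without mitochondrial genes. The share lower at an unadjusted p under 0.05 ran from 4.41% to 10.3% with 1 library left out (highest without WT replicate 6), and the share higher from 2.13% to 8.06% (highest without KO replicate 2); counts of list members under those settings, given below, stand against these shares. With the mitochondrial share of TPM as a covariate the shares were 3.92% lower and 11.5% higher. The median log2 difference over all genes was -0.01, and 50.9% of genes had the lower value in the KO-labelled libraries. Because 0 genes passed, each value below is given as a description of libraries that did not differ past the threshold after adjustment. The gene lists were chosen with earlier results of these data known. A count of members above the share of all genes is therefore a description and no test. In the 11 libraries, counts at an unadjusted p under 0.05 stand beside 6.84% lower and 3.37% higher. Members without overlap stand beside 0.948% lower and 0.292% higher.

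Of the 24 named genes with the smallest p, 22 had lower and 2 (Clk4 and mt-Nd4l) higher values in the KO-labelled libraries. Unnamed gene models were left out of this choice, so the split is not that of all genes. Among those left out, Gm48269, Gm17132 and Gm14308 were higher without overlap (limma adjusted p = 0.15, 0.16 and 0.16). MSTRG.13349 and MSTRG.2421 were lower without overlap (limma adjusted p = 0.13 each). Of all genes, 6.84% were lower and 3.37% higher at an unadjusted p under 0.05. Dynlt1b, a dynein light chain, ranked first. It stood at 43.9, 57.0 and 64.7 TPM (lowest, median, highest) in the KO-labelled libraries and at 99.6, 100, 93.3, 99.7 and 107 TPM in WT. The groups lay apart by more than the range within either, with a log2 difference of -0.84 ± 0.13 (SE) and a limma adjusted p of 0.13. Its near-identical copies Dynlt1f, at 48.2 ± 6.9 against 48.9 ± 2.8 TPM, and Dynlt1c, at 8.13 ± 2.38 against 5.18 ± 1.43 TPM, did not have lower values of like size, and how reads were shared among the copies is not given, so the level of each is uncertain.

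Cd14, the co-receptor for lipopolysaccharide on monocytes and macrophages, ranked second. Its values were 10.97, 15.3 and 16.7 TPM in the KO-labelled libraries and 24.2, 32.6, 37.6, 28.1 and 28.1 TPM in WT. Every WT library lay above every KO-labelled one, at a mean of 30.1 ± 5.1 (SD, n = 5) against 14.3 ± 2.3 TPM (SD, n = 6), a log2 difference of -1.02 ± 0.16 (limma adjusted p = 0.13). Lgals3bp, a secreted glycoprotein that binds galectin-3, stood at 80.4, 121 and 179 TPM against 331, 239, 267, 296 and 216 TPM, again with no overlap, and its log2 difference was -1.15 ± 0.20 (limma adjusted p = 0.13).

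Nnt encodes a transhydrogenase of the inner mitochondrial membrane that supplies NADPH. Its level was 4.68, 5.90 and 7.09 TPM in the KO-labelled libraries and 21.8, 15.1, 9.02, 12.5 and 18.6 TPM in WT. The 6 KO-labelled values lay close together and below the more widely spread WT values, with a log2 difference of -1.18 ± 0.21 (limma adjusted p = 0.15). This level is the sum of a pair of overlapping gene models. With the rows as deposited, the larger of them had a log2 difference of -0.96 (limma adjusted p = 0.29). Its groups overlapped, with WT replicate 6 at 6.15 TPM and KO replicates 4 and 6 at 7.07 and 7.09. The smaller model was at 0 in 5 KO-labelled and 2 WT libraries, so the separation holds for the sum only. C57BL/6J mice are known to carry a deletion within Nnt that other C57BL/6 substrains lack; the labels give no substrain, so a difference in substrain and the Dectin-1 label cannot be told apart here. Prtn3, a serine protease of neutrophil granules, stood at 4.30, 15.2 and 21.3 TPM against 64.1, 32.1, 131, 89.9 and 85.5 TPM, a log2 difference of -2.40 ± 0.39 (limma adjusted p = 0.13). Prtn3 lies in the same gene cluster as Cfd, the adipocyte protease adipsin, which stood at 14908 ± 6415 TPM (SD, n = 6) against 24271 ± 7519 (SD, n = 5), and as Elane, the neutrophil elastase, which stood at 0.93 ± 0.44 against 1.67 ± 0.18 TPM.

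**Figure D2:**
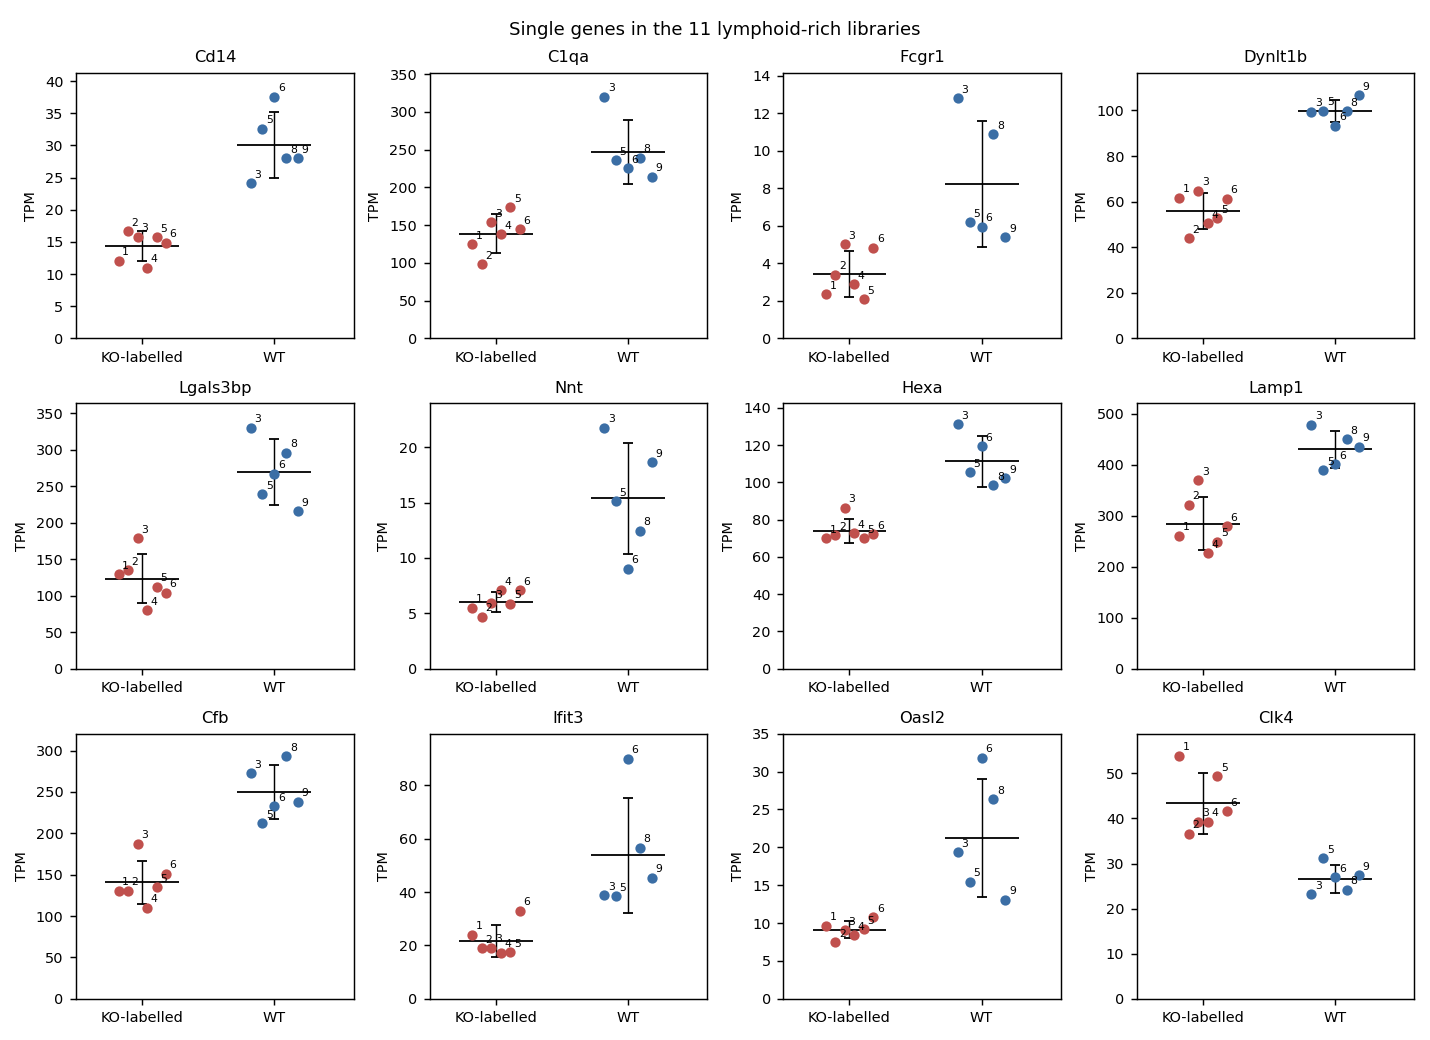
Each panel plots the TPM of 1 gene in the 6 KO-labelled (red) and 5 WT (blue) libraries on a linear axis from 0, with replicate numbers beside the points; the horizontal line is the mean and the bar the SD. In 11 panels every KO-labelled point lies below every WT point, and in the panel of Clk4 every KO-labelled point lies above. The panel of Nnt shows the sum of a pair of gene models, the larger of which overlaps between groups. None of the 12 genes passed the adjusted threshold.

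Macrophage genes had lower values in the KO-labelled libraries with few exceptions, although 0 of them passed. Of 27 tested genes, 26 were lower, 10 of them (37.0%) at an unadjusted p under 0.05 where 6.84% of all genes were, and the median log2 difference was -0.58. The groups did not overlap for 4 (0.948% of all genes were lower without overlap): Cd14, C1qa, C1qb and Fcgr1. Fcgr1, the high-affinity IgG receptor, stood at 2.08, 3.14 and 5.03 TPM in the KO-labelled libraries and at 12.8, 6.21, 5.95, 10.9 and 5.40 TPM in WT, a log2 difference of -1.04 ± 0.26 (limma adjusted p = 0.23). Cd68, a lysosomal glycoprotein of macrophages, stood at 39.4 ± 9.99 TPM (SD, n = 6) against 69.3 ± 19.6 (SD, n = 5; log2 difference -0.80 ± 0.23, limma adjusted p = 0.28). The general macrophage markers Adgre1 (F4/80) and Mrc1 (the mannose receptor CD206) had smaller differences, -0.33 ± 0.32 and -0.27 ± 0.28. Cd163, the haemoglobin scavenger receptor, was the 1 member with a higher value, at 9.58 ± 4.87 against 5.86 ± 3.20 TPM (log2 difference 0.64 ± 0.36).

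The mean level of the macrophage genes on the log2 scale did not separate the groups. The mean log2(TPM + 1) of the list was 4.59 ± 0.28 (SD, n = 6) in the KO-labelled libraries, between 4.13 and 4.89, and 5.11 ± 0.48 (SD, n = 5) in WT, where replicates 3, 8 and 9 lay above all KO-labelled libraries and replicates 5 and 6 among them. Leaving out WT replicate 6 brought the members lower at an unadjusted p under 0.05 from 10 to 19 and the median to -0.74, while the share over all genes went from 6.84% to 10.3%. With the mitochondrial share of TPM as a covariate, 3 members were lower at that p, where 3.92% of all genes were, and the median was -0.34. Markers of dendritic cells were not lower: 11 of 17 had higher values, with a median of 0.08. Those of neutrophils and monocytes were lower for 10 of 14, 2 at an unadjusted p under 0.05, with a median of -0.30.

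Genes of lipid-associated macrophages, the Trem2-bearing cells that gather around dying adipocytes, were lower for 21 of 21 members, 10 of them (47.6%) at an unadjusted p under 0.05, with a median of -0.57. Trem2, the lipid receptor that marks them, stood at 1.19, 1.85 and 2.73 TPM in the KO-labelled libraries and at 6.37, 4.89, 3.43, 6.33 and 2.14 TPM in WT. WT replicate 9 lay within the KO-labelled range, and the log2 difference was -0.92 ± 0.24 (limma adjusted p = 0.24). For Apoe, a lipoprotein made by macrophages and adipocytes alike, and Cd63, a tetraspanin of late endosomes, the groups did not overlap: Apoe stood at 5617 ± 1012 TPM (SD, n = 6) against 8648 ± 689 (SD, n = 5; log2 difference -0.64 ± 0.18, limma adjusted p = 0.27). Several members, such as Fabp4, Lpl and Cd36, are also expressed by adipocytes, whose own markers were lower too, so the adipocyte share of the pieces and this list cannot be told apart. With the adipocyte score as a covariate 16 of 21 members were lower, and the median was -0.33. In that setting 7 members were lower at an unadjusted p under 0.05, where 4.91% of all genes were.

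Lysosomal genes had lower values over the same libraries. Of 34 tested members, 33 were lower, with a median log2 difference of -0.33. At an unadjusted p under 0.05, 14 (41.2%) were lower, where 6.84% of all genes were. The groups did not overlap for Lamp1, Hexa, Glb1, Grn and Atp6v0d1, where 0.948% of all genes were lower without overlap. Lamp1, a major protein of the lysosomal membrane, stood at 227, 270 and 369 TPM in the KO-labelled libraries and at 478, 389, 401, 451 and 435 TPM in WT, a log2 difference of -0.61 ± 0.15 (limma adjusted p = 0.23). Hexa, a hexosaminidase that breaks down gangliosides, stood at 69.9, 72.0 and 86.4 TPM against 131, 105, 119, 98.4 and 102 TPM, a log2 difference of -0.58 ± 0.12 (limma adjusted p = 0.19). The KO-labelled values of Hexa were close together apart from replicate 3. Glb1, the acid β-galactosidase, and Grn, the secreted and lysosomal progranulin, had log2 differences of -0.58 ± 0.14 and -0.63 ± 0.16. Other members stood near 0, among them Atp6v1b2 (-0.06), a proton pump subunit, and Ctss (-0.09), a cathepsin of antigen-presenting cells. The count lower at an unadjusted p under 0.05 was 23 without WT replicate 6, where 10.3% of all genes were lower. With the mitochondrial share as a covariate it was 8, where 3.92% of all genes were lower.

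Complement transcripts had lower values in the KO-labelled libraries for most members. Of 29 tested members, 24 were lower, 14 (48.3%) at an unadjusted p under 0.05, and the median was -0.56. All 3 chains of C1q, which starts the classical pathway and is made by macrophages, were among them. C1qa stood at 97.9, 141 and 174 TPM in the KO-labelled libraries and at 320, 236, 226, 239 and 214 TPM in WT, a log2 difference of -0.83 ± 0.17 (limma adjusted p = 0.19). C1qb and C1qc had log2 differences of -0.88 ± 0.20 and -0.84 ± 0.21.

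C2, the next protease of the classical pathway, stood at 12.1, 28.5 and 35.3 TPM against 71.7, 43.9, 56.1, 99.9 and 81.3 TPM (log2 difference -1.36 ± 0.28, limma adjusted p = 0.19). C4b, which C1 cleaves, stood at 229 ± 87 TPM (SD, n = 6) against 588 ± 170 (SD, n = 5; log2 difference -1.39 ± 0.29), with WT replicate 5 inside the KO-labelled range. C4b has a close copy, C4a, at 4.20 ± 1.94 against 2.82 ± 1.89 TPM, so the division of reads between them is uncertain. Cfb, the factor B of the alternative pathway, stood at 110, 133 and 187 TPM against 273, 212, 232, 293 and 238 TPM, without overlap (log2 difference -0.83 ± 0.16, limma adjusted p = 0.16). The central component C3 had a log2 difference of -0.59 (limma adjusted p = 0.42), and the complement receptors were mixed: C3ar1 at -0.42, C5ar1 at -0.56, and Cr2, which marks B cells and follicular dendritic cells, at 0.33. With the mitochondrial share as a covariate 6 members were lower at an unadjusted p under 0.05.

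Interferon-stimulated genes were lower for 39 of 41 members, 20 of them (48.8%) at an unadjusted p under 0.05, with a median log2 difference of -0.41. These genes carry antiviral products and are switched on when interferon activates the factor ISGF3, which binds a paired GAAA element near their start sites. Ifit3, which binds viral RNA in a complex with its relatives, stood at 17.3, 19.0 and 33.04 TPM in the KO-labelled libraries and at 38.7, 38.5, 90.0, 56.6 and 45.3 TPM in WT, a log2 difference of -1.24 ± 0.24 (limma adjusted p = 0.16). Oasl2, of the oligoadenylate synthetase family, stood at 7.49, 9.11 and 10.8 TPM against 19.4, 15.5, 31.8, 26.4 and 13.1 TPM, a log2 difference of -1.07 ± 0.21 (limma adjusted p = 0.19). For both genes the groups did not overlap, and the same held for Usp18, the protease that removes ISG15 from proteins (log2 difference -0.77 ± 0.18), and for the exonuclease Isg20 (log2 difference -0.46 ± 0.14). Irf7, a factor of the interferon feedback loop, and Isg15 itself had log2 differences of -1.09 ± 0.28 and -1.04 ± 0.28 with groups that overlapped. The transcription factors Irf1 (0.00) and Stat2 (0.13) were the members that were not lower.

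The score of the interferon list was 4.08 ± 0.23 (SD, n = 6) in the KO-labelled libraries and 4.60 ± 0.19 (SD, n = 5) in WT, on the mean log2(TPM + 1) scale. KO replicate 6, at 4.39, lay above WT replicate 9, at 4.30, and the other libraries were ordered by label. WT replicate 6, among the lowest WT libraries on the macrophage score, stood at 4.69 here, above every KO-labelled library. The count of members lower at an unadjusted p under 0.05 was 17 to 23 with 1 library left out, 12 in all 14 libraries (6.59% of all genes) and 10 with the mitochondrial share as a covariate (3.92% of all genes).

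To show the shared element, a pair of GAAA with any 2 bases between them was searched on both strands in the 250 bases before the start of each gene, in RefSeq promoters of GRCm38.p6. Of the 41 members 29 had a promoter in the table, and 15 of these (51.7%) held a match, where 3.46% of all genes did. A stretch of 60 bases is printed for the 4 members with the smallest p among those with a match, on the strand of the gene, with the matched letters in capitals.
Ifit3: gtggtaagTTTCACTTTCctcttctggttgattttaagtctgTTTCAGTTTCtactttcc
Ifit3b: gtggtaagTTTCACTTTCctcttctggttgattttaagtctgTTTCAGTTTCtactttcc
Oas1a: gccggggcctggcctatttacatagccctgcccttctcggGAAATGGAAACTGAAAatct
Ifit1: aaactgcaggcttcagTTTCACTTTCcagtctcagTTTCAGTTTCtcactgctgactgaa
These lie at chr19:34583365-34583424 (plus strand), chr19:34607761-34607820 (plus), chr5:120907526-120907585 (minus) and chr19:34640769-34640828 (plus). Each holds 2 matches, which overlap in Oas1a and lie on the opposite strand, read as TTTC, in the Ifit genes. The stretches of Ifit3 and Ifit3b are identical letter for letter, and the transcripts are near copies too, so their reads may be shared. The log2 differences of Ifit3b, Oas1a and Ifit1 were -1.15 ± 0.25, -1.13 ± 0.26 and -1.01 ± 0.24. Oasl2 held no match in this window. A match describes the letters and does not show that a factor bound there.

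Antigen presentation by class I molecules, which interferon also raises, was lower for 18 of 21 members, 7 at an unadjusted p under 0.05, with a median of -0.19. H2-T22, a non-classical class I gene, stood at 132, 143 and 169 TPM in the KO-labelled libraries and at 216, 223, 289, 209 and 198 TPM in WT, a log2 difference of -0.62 ± 0.14 (limma adjusted p = 0.19). Tapbp, the tapasin that loads peptides, stood at 156 ± 9.8 TPM (SD, n = 6) against 201 ± 24 (SD, n = 5), a log2 difference of -0.36 ± 0.12. Both genes showed no overlap, although class I genes are close copies of each other and share reads. The median of the class I list was -0.07 without KO replicate 2 and turned to 0.02 in all 14 libraries and to 0.24 with the mitochondrial share as a covariate. Class II genes, of B cells and other presenting cells, were even, with 7 lower and 8 higher and a median of 0.00.

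Adipocyte genes were also lower in the KO-labelled libraries, with wide spread. Of 30 tested members, 26 were lower, 6 (20%) at an unadjusted p under 0.05, with a median log2 difference of -0.47. Adipoq stood at 683, 1248 and 2473 TPM in the KO-labelled libraries and at 2394, 2001, 3265, 2326 and 2677 TPM in WT. KO replicate 2 lay among the WT libraries, and the log2 difference was -0.93 ± 0.29 (limma adjusted p = 0.32). Cidec, a lipid droplet protein, had a log2 difference of -0.97 ± 0.29, while Pparg, the master regulator of fat cells, stood at 0.19. The count at an unadjusted p under 0.05 ran from 2 without WT replicate 6 to 15 without KO replicate 3. Fatty acid oxidation genes were lower for 27 of 30, with a median of -0.34 and 6 at an unadjusted p under 0.05; leaving out KO replicate 2 or 3 gave counts of 15 and 11. Slc25a20, the carnitine carrier, and Ehhadh, a peroxisomal enzyme, showed no overlap (log2 differences -0.47 ± 0.16 and -0.63 ± 0.21).

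Redox genes were lower for 36 of 38 members, 13 (34.2%) at an unadjusted p under 0.05, with a median of -0.36. Gsto1, a glutathione transferase, stood at 48.2, 55.3 and 73.7 TPM in the KO-labelled libraries and at 99.6, 109, 114, 104 and 81.5 TPM in WT, a log2 difference of -0.77 ± 0.14 (limma adjusted p = 0.16). Sod1, the cytosolic superoxide dismutase, and Sqstm1, the autophagy receptor p62, also showed no overlap, with log2 differences of -0.69 ± 0.21 and -0.63 ± 0.14. Ferritin, the iron store that macrophages and adipocytes hold, was chosen after its values were seen: Fth1 stood at 2832 ± 381 TPM (SD, n = 6) against 3866 ± 331 (SD, n = 5), and Ftl1 at 2660 ± 245 against 3497 ± 467, each without overlap and with log2 differences of -0.46 ± 0.15 and -0.39 ± 0.15. Among cytochromes P450 and related enzymes 17 of 24 were lower, with a median of -0.42. Cyp2f2 stood at 11.3, 47.8 and 76.5 TPM against 139, 105, 251, 247 and 162 TPM (log2 difference -2.13 ± 0.43, limma adjusted p = 0.19).

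Matrix genes, the products of adipose fibroblasts, were lower for 32 of 35 members, 11 (31.4%) at an unadjusted p under 0.05, with a median of -0.57. Mmp3, the protease stromelysin 1, stood at 6.63, 11.2 and 18.8 TPM in the KO-labelled libraries and at 42.7, 22.5, 19.5, 50.4 and 34.0 TPM in WT, a log2 difference of -1.43 ± 0.31 (limma adjusted p = 0.19). Col1a1, the main fibrillar collagen chain, stood at 41.0 ± 14.1 TPM (SD, n = 6) against 72.7 ± 46.2 (SD, n = 5), a log2 difference of -0.62 ± 0.43. WT replicates 5 and 6 had matrix scores of 4.71 and 4.85, inside the KO-labelled range of 4.07 to 5.34, while WT replicates 3, 8 and 9 lay above it. The count at an unadjusted p under 0.05 was 5 without any 1 of KO replicate 4 or 5 and WT replicate 3, 8 or 9, 6 without KO replicate 6, and 19 without WT replicate 5.

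**Figure D3:**
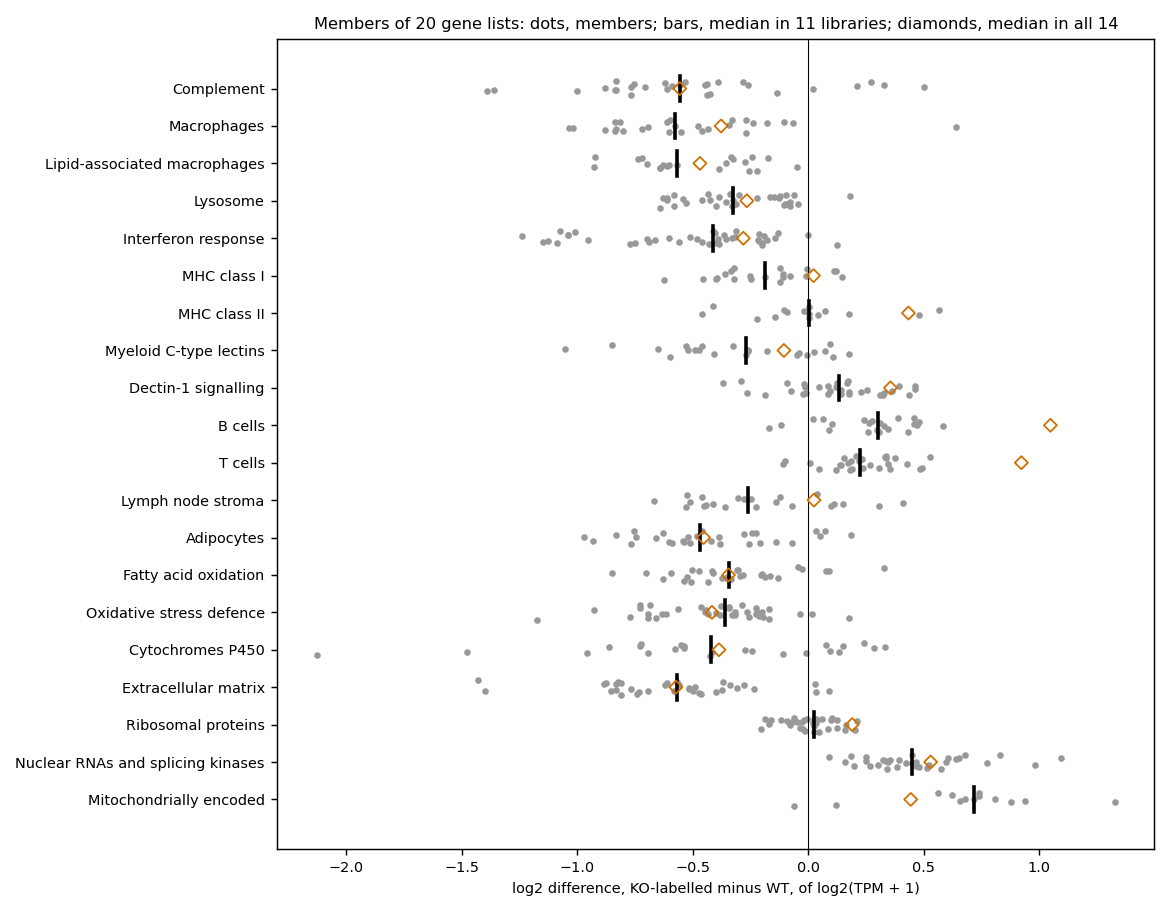
Each grey dot is the log2 difference (KO-labelled minus WT, on the log2(TPM + 1) scale) of 1 tested member of a gene list, the black bar is the median of the list in the 11 libraries, and the open diamond the median in all 14. Macrophage, complement and matrix medians lie between -0.58 and -0.56, the nuclear RNA median lies at 0.45, and the diamonds of B and T cells lie to the right of their bars, at 1.05 and 0.92.

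On the other side, RNAs retained in the nucleus and kinases and proteins of splicing were higher in the KO-labelled libraries for 33 of 33 tested members, 16 (48.5%) at an unadjusted p under 0.05 where 3.37% of all genes were. The median log2 difference was 0.45. This list, like the others, was chosen with earlier results of these data known, so its count is a description. Malat1, an abundant nuclear long non-coding RNA of splicing speckles, stood at 109, 175 and 205 TPM in the KO-labelled libraries and at 93.8, 85.5, 34.5, 108 and 82.4 TPM in WT. KO replicate 2 and WT replicate 8 nearly touched, and the log2 difference was 1.10 ± 0.27 (limma adjusted p = 0.22). Clk4, a kinase of splicing factors whose own introns are often left in, stood at 36.6, 40.5 and 54.0 TPM against 23.2, 31.2, 27.0, 24.2 and 27.4 TPM, without overlap (log2 difference 0.68 ± 0.14, limma adjusted p = 0.19). Neat1, the scaffold of paraspeckles, and Pnisr, a splicing-related protein gene, had log2 differences of 0.98 ± 0.24 and 0.83 ± 0.19. The count at an unadjusted p under 0.05 was 25 without KO replicate 2 and 11 without WT replicate 6.

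A pair of measures of library composition also had higher means in the KO-labelled libraries. Whether they follow these genes from library to library was not tested. KO replicate 2 had the highest mitochondrial share of the 11 libraries, 16.8%. Its nuclear RNA score, 5.64 on the mean log2(TPM + 1) scale, was the lowest of the KO-labelled libraries. Gene models classed by GENCODE as sense-intronic or TEC (a class of unverified models), many of which lie inside introns, took 0.0826% ± 0.0079 of TPM in the KO-labelled libraries (SD, n = 6, range 0.0681 to 0.0917) and 0.0575% ± 0.0049 in WT (SD, n = 5, range 0.0508 to 0.0632). The groups did not overlap (exact permutation p = 0.00433, adjusted over 4 measures 0.0173). By this share too KO replicate 2 was the lowest of the KO-labelled libraries, at 0.0681%. KO replicate 1 had the highest share of the 11 libraries, 0.0917%, and the highest nuclear RNA score, 6.29. Mitochondrially encoded genes took 11.5% ± 3.1 of TPM (range 7.69 to 16.8) against 7.10% ± 2.15 (range 4.46 to 9.75), with overlap (exact permutation p = 0.0238, adjusted 0.0476). Of the 13 mitochondrial genes tested singly, 12 were higher, 10 at an unadjusted p under 0.05, with a median of 0.72, and mt-Nd4l had a log2 difference of 1.33 ± 0.28 (limma adjusted p = 0.19). The number of genes at 1 TPM or more (15036 ± 493 against 14809 ± 525, exact permutation p = 0.47) and the share of the 10 most abundant genes (19.9% ± 4.4 against 15.6% ± 3.3, exact permutation p = 0.0996) did not pass the threshold. What part the intron and mitochondrial shares have in the gene groups above was not tested beyond the covariate values given.

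**Figure D4:**
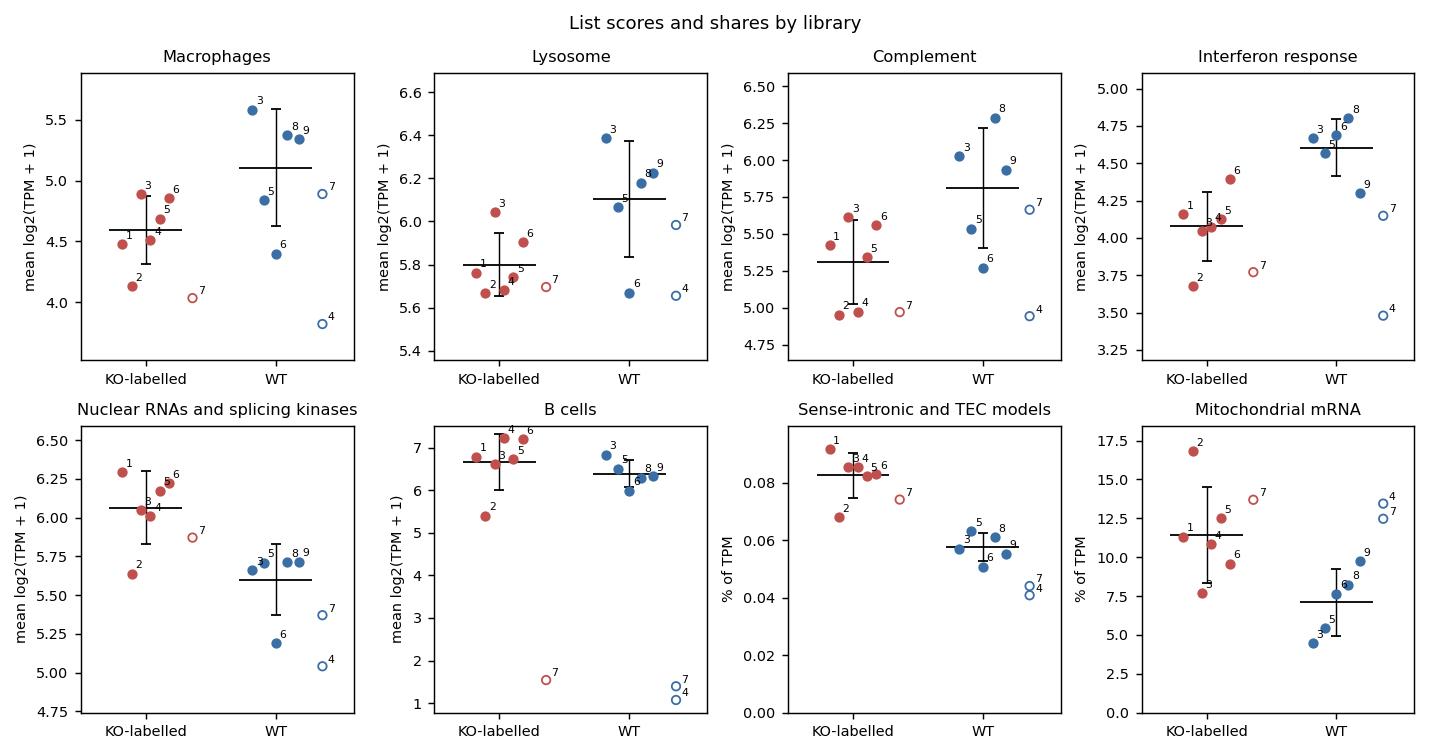
The first 6 panels plot the mean log2(TPM + 1) of a gene list in each library, and the last 2 the percent of TPM in sense-intronic and TEC gene models and in mitochondrial mRNA; red is KO-labelled, blue is WT, open points are the 3 libraries left out, and line and bar are the mean and SD of the filled points. The groups separate without overlap in the panel of sense-intronic models, where the KO-labelled points lie at 0.0681% to 0.0917% and the WT points at 0.0508% to 0.0632%; in the macrophage panel WT replicates 5 and 6 lie among the KO-labelled points.

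Lymphocyte genes, on which the choice of libraries rests through Cd79a, are given as a description. Their level was not matched: B-cell scores ran from 5.40 to 7.22 on the mean log2(TPM + 1) scale, both in KO-labelled libraries. B-cell genes other than Cd79a (log2 difference 0.02) were slightly higher in the KO-labelled libraries: 20 of the 22 members of the list, Cd79a included, were higher, with a median of 0.30. Of 28 T-cell genes 26 were higher, with a median of 0.23. For both lists 0 members had an unadjusted p under 0.05. Without KO replicate 2, 13 B-cell members were higher at that p and the median was 0.56, and with the mitochondrial share as a covariate 17 B-cell and 9 T-cell members were. Without WT replicate 6 the B-cell median was 0.17 and the T-cell median -0.04. Node stroma genes had 16 of 22 lower and a median of -0.26, with 3 at an unadjusted p under 0.05. That median was -0.11 without KO replicate 2 and -0.44 without WT replicate 6, with 8 at that p, and it turned to 0.02 in all 14 libraries and to 0.12 with the mitochondrial share as a covariate. Ccl21a stood at 733 ± 242 TPM (SD, n = 6) against 711 ± 236 (SD, n = 5). Ribosomal protein genes, as a reference for bulk changes, had 16 lower and 18 higher members and a median of 0.02. Skeletal muscle genes had a median of 0.11 with 0 members at an unadjusted p under 0.05, and its sign changed with single libraries: it was -0.54 without KO replicate 6, 0.83 without WT replicate 3 and -1.40 in all 14 libraries.

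The restriction to lymphoid-rich pieces can be set beside the whole series. In a fit over all 14 libraries with a term for the lymphoid class, 0 of 15512 genes had a label difference that differed between the lymphoid-rich and lymphoid-poor libraries (limma, smallest adjusted p = 0.16), and 330 did at an unadjusted p under 0.05. The poor class holds 1 KO-labelled and 2 WT libraries, so this test has little reach. In those 3 libraries Dynlt1b stood at 65.0 TPM in KO replicate 7 and at 93.1 and 105 in WT replicates 4 and 7, and Nnt at 5.86 against 15.8 and 13.8 TPM, both ordered as in the lymphoid-rich pieces. Cd14 was not: KO replicate 7, at 26.7 TPM, lay between WT replicate 4 at 22.2 and WT replicate 7 at 54.1. Prtn3 stood at 63.9 TPM in KO replicate 7, below WT replicates 4 and 7 at 84.7 and 138, and above all 6 KO-labelled libraries of the lymphoid-rich class. C1qa stood at 74.1 TPM in KO replicate 7, at 67.5 in WT replicate 4 and at 229 in WT replicate 7. Over all 14 libraries the macrophage median was -0.38 and the interferon median -0.28, against -0.58 and -0.41 in the lymphoid-rich pieces, and the complement and matrix medians were -0.56 and -0.57 in both sets; these sets share 11 libraries.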

How the data were processed

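The authors deposited 1 table of gene-level TPM for the series, with 56552 rows. Dry-ice freezing, Trizol extraction and Illumina TruSeq library preparation are given per the labels' protocols. Bowtie 0.12.2, mm8 and mm9 appear in the list of tools and builds per the submitters' processing notes. The program behind the TPM values, its annotation and its use of strand are not stated in any source used, so no gene coordinates are printed from the files. TPM keeps no read number, so depth is unknown and the spread between libraries is the error throughout. The labels give each library 1 mouse; if libraries were not separate animals, p-values would measure only the spread between these samples.

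Rows of 1 symbol were summed (54955 symbols or unnamed IDs), and the 15090 genes that reached 1 TPM in 5 or more of the 11 libraries were tested on log2(TPM + 1) with limma-trend (limma 3.58.1 in R 4.3.3, robust prior, 2-sided, Benjamini-Hochberg over all genes tested). Differences on this scale are KO-labelled minus WT and understate those of low genes. A gene counts as changed at an adjusted p under 0.05. Single values used 2-sided exact permutation tests. Groups do not overlap for a gene where every library of one lies beyond every library of the other.

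The members and the 44 gene lists were chosen with earlier results of these data known. Named were Clec7a, the 24 genes with the smallest p (unnamed models and pseudogenes left out) and up to 4 members per list by p; not all are printed, and others named as examples of a list or as showing no overlap were chosen after their values were seen. On simulated data with 200 changed genes among 15090 the test recovered 42.7% of genes changed 2-fold and 93.1% of genes changed 4-fold. The mean number of false calls over 5 runs was 9 at 2-fold and 7.8 at 4-fold. RefSeq promoters are of GRCm38.p6; GENCODE classes matched 52083 rows. Alternatives tried were other pseudocounts, filters, scalings, covariates, library weights, a replicate block, all 14 libraries and each library left out.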

Additional observations from a re-analysis of the deposited data

Results flagged for a closer look

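Among 96 groups of libraries looked at for the genes named, 5 held a library far from the others of its label; chance flags about 1 group in 20. C1qa stood at 320.25 TPM in WT replicate 3, the highest of its group, and Hexa at 86.42 TPM in KO replicate 3, the highest of its group. Ccl9, a myeloid chemokine outside the rule for named genes, reached 52.63 TPM in WT replicate 8. WT replicate 6, which also stood apart on the first principal component, had the highest WT values of Slc25a20, at 48.14 TPM, and of Sod1, at 2201.39 TPM. In C1qa, Ccl9, Slc25a20 and Sod1 the far library lies on the side away from the KO-labelled group, and in Hexa it lies on the side toward the WT group.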

How the results depend on the processing

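The count of changed genes was 0 with pseudocounts of 0.1 and 0.5, with TPM rescaled without mitochondrial genes, with other filters, with rows as deposited, with a prior that was not robust and with a muscle score as covariate. It was 4 with quantile normalization (Nnt, Dynlt1b, Gm17132 and Pnisr), 1 with median-ratio scaling (Nnt), 3 in all 14 libraries (Dynlt1b, Nnt and Lgals3bp) and 6 with the B-cell score as covariate (Dnase1l3, Dynlt1b, Nnt, Cd14, C1qa and Cfp, all lower). With limma's library weights it was 371, 138 higher and 233 lower. With 1 library left out it ran from 0 to 2, at 1 when KO replicate 2 or 5 was absent and 2 when KO replicate 3 or WT replicate 5 was, and the count of the label by lymphoid class term ran from 0 to 1, being 1 without KO replicate 1, 2 or 3. 3 alternatives were chosen after seeing the data: without both KO replicate 2 and WT replicate 6, 16 genes were changed, 8 in each direction (Nnt, Dynlt1b, Cd14 and Malat1 among them), with the mitochondrial share as covariate 1 was (Gm29585, higher), and with the adipocyte score as covariate 1 was (Gm14288, higher). Without that pair the macrophage list held 16, the lysosome list 22 and the nuclear RNA list 26 members at an unadjusted p under 0.05, where 11.7% of all genes were lower and 6.80% higher at that p. The cause of these moves was not tested. The median of all genes moved to 0.13 with the mitochondrial share as covariate, to 0.12 with the replicate block and to -0.11 without WT replicate 6; values under those settings stand relative to it. For 44 genes the log2 difference had the same sign under all 26 alternatives run for them. These were Clec7a, the genes with the smallest p and most genes named as showing no overlap. Apart from Clec7a they were chosen from the same data. Where groups do not overlap, leaving out a library cannot change the sign, so the shared sign is a description and no test. Replicate numbers 3, 5 and 6 occur in both groups. Same-numbered libraries deviated together in 1 of 3 pairs (correlations -0.20, 0.30 and -0.26). The closest WT library was replicate 5 for KO replicate 5, and replicate 8 for KO replicates 3 and 6. With 3 pairs these values cannot settle whether the numbers pair the libraries, and the main fit does not pair them. With the replicate number as a block over these 3 pairs 0 genes were changed, and the macrophage and lysosome medians were both -0.09. Depth, which TPM does not record, limits genes near 1 TPM such as Clec4e.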
